A study of Mus musculus with 4 samples.

Results

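Inhibitory receptors are surface molecules that restrain an activated T cell, and several of them together mark T cells under chronic stimulation. Here 8 such genes were followed through the transcriptomes of transplanted CD4 T cells in graft-versus-host disease (GVHD), in which donor T cells attack the tissues of their host: Pdcd1, Lag3, Havcr2, Tigit, Ctla4, Cd160, Cd244 and Entpd1. The genes were taken as a named list, with no cut on their levels, and are 8 of the 31053 genes of each count matrix. The list and the states were nevertheless chosen with earlier results of these data known. The question was whether the receptors rise together in the same cells or belong to separate cell states. All cells came from 1 kind of sample: TS1 Tg CD4 T cells, which carry a transgenic T cell receptor and are labelled with the strain BALB/c RAG2-/- TS1 Tg, sorted by flow cytometry from GVHD mice 4 weeks after transplantation. Spleen, colon, ear skin and the intraepithelial and lamina propria fractions of the small intestine were hashed by tissue and pooled before droplet sequencing, in 2 libraries called library 1 and library 2. Both libraries share the genotype, the receptor and the time point, and no ungrafted or disease-free group was analysed here. The feature lists hold 0 hashtag features, so no cell has a tissue, and a cell state and the tissue it came from cannot be told apart. The labels do not say whether the libraries came from separate animals. Every p-value given here then weighs a difference between classes of cells only against its variation between these 2 libraries, which may be technical.

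PD-1 (encoded by Pdcd1) and CTLA-4 (Ctla4) belong to the CD28 family: PD-1 recruits phosphatases that dampen T cell receptor signalling, and CTLA-4 competes with CD28 for CD80 and CD86. LAG-3 (Lag3) resembles CD4 and binds MHC class II, TIM-3 (Havcr2) binds galectin-9 among other ligands, and TIGIT (Tigit) competes with the co-stimulatory receptor CD226 for CD155. CD160 (Cd160) binds HVEM, 2B4 (Cd244) is a SLAM family receptor for CD48 that can activate or inhibit, and both are also found on natural killer cells and intraepithelial lymphocytes. CD39 (Entpd1) is an ectoenzyme that breaks down extracellular ATP on the way to adenosine. A receptor of this kind is also induced on recently activated T cells, so its transcript alone marks neither exhaustion nor suppression.

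In the mm10 annotation the genes lie apart, on 6 chromosomes, and none of them overlaps another. Pdcd1 is at chr1:94038305-94052553 and, on the same chromosome, Ctla4 is at chr1:60887000-60915832 and Cd244 at chr1:171559193-171609746. Cd160 is at chr3:96798763-96829351, Lag3 at chr6:124904361-124911705, Havcr2 at chr11:46454935-46481255, Tigit at chr16:43648867-43664146 and Entpd1 at chr19:40612366-40741602. The promoters below belong to the pairs that behaved most alike in the cells, Pdcd1 with Havcr2 and Cd160 with Cd244. They are the 250 bases before a RefSeq start in GRCm38.p6, whose primary assembly is mm10, and capitals mark matches on either strand to the motifs named after them. RefSeq lists 2 starts for Cd160 and names Cd244 as Cd244a, and 7 of the 8 receptors had an entry (all but Lag3).
Pdcd1, chr1:94052554-94052803, minus strand: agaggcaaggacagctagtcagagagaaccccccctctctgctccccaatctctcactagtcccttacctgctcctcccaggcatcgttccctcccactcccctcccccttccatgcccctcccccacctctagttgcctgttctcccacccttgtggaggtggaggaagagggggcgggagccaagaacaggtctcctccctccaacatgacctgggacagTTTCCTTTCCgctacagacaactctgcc
Havcr2, chr11:46454681-46454930, plus strand: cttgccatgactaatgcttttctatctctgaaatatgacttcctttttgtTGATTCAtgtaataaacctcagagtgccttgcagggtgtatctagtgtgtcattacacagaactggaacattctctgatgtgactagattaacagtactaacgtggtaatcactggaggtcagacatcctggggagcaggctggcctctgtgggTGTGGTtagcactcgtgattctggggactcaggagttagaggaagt
Cd160 upstream start, chr3:96829352-96829601, minus strand: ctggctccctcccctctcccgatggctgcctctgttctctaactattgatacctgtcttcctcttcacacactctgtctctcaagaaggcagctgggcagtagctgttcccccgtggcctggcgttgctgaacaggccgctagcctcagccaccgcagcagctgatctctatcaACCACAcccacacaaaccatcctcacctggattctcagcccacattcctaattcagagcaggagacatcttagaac
Cd160 downstream start, chr3:96814522-96814771, minus strand: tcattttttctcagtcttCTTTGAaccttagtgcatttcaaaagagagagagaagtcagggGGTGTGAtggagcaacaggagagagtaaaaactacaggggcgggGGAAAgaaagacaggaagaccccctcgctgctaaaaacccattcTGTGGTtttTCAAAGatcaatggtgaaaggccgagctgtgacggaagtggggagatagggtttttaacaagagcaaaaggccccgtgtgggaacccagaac
Cd244, chr1:171558943-171559192, plus strand: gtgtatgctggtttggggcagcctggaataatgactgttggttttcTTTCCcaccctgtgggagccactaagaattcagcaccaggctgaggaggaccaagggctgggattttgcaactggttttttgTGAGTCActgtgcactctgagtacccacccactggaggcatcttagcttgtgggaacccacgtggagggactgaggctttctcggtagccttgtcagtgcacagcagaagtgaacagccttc
The motifs searched were AP-1 (TGANTCA), the NFAT core (GGAAA), Runx (TGTGGT), T-box (GGTGTGA), Nr4a (AAGGTCA) and Tcf (CTTTGA). The Pdcd1 window holds 2 NFAT core matches, the Havcr2 window 1 AP-1 and 1 Runx match, and the Cd244 window 1 AP-1 and 1 NFAT core match. The window at the upstream Cd160 start holds 1 Runx match, and that at its downstream start 1 Runx, 1 NFAT core, 1 T-box and 2 Tcf matches. Among the 32851 mouse promoters searched in the same way, 6.75% held the AP-1 letters, 55.6% the NFAT core, 14.0% Runx, 3.33% T-box, 4.08% Nr4a and 13.8% Tcf. No motif was shared by both members of the Pdcd1 and Havcr2 pair, while the NFAT core occurred in both Cd244 and the downstream Cd160 window. A match describes the letters of the window and is no evidence of binding.

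The libraries held 89427990 and 108082997 unique molecular identifiers (UMIs, each counting 1 captured RNA molecule). With minimums of 1000 UMIs and 500 genes and a mitochondrial share of up to 10%, 19020 and 15898 cells were kept, with a median of 2688 and 3699 UMIs. Cells of other types (258 and 183) were set aside by marker genes, and the T cells that reached 1500 UMIs were thinned at random to that depth, which left 15113 and 14691 T cells. Cd3e, a chain of the T cell receptor complex, was detected in 92.8% of these, Trac in 69.3% and Cd4 in 26.0% (means of the libraries), while Cd8a was detected in 31.2%, Trdc in 29.4% and the regulatory T cell gene Foxp3 in 0.0537%. The libraries shared 599 cell barcodes where 44.5 would be shared by independent draws, and in a shared barcode the deeper library held a median of 15.2 times the UMIs of the other. Leaving those barcodes out kept all 58 receptor calls between states and all 38 between cells split by a receptor that are described below, and added 1 of the former. No called log2 fold moved by more than 0.090.

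At 1500 UMIs per cell every receptor except Tigit was found in at least several percent of the T cells. Cd160 was detected in 30.2% and 30.0% of cells in libraries 1 and 2, Ctla4 in 21.6% and 27.9%, Lag3 in 21.2% and 21.6% and Pdcd1 in 15.0% and 12.9%. Cd244 was detected in 9.36% and 9.82%, Entpd1 in 7.99% and 8.50%, Havcr2 in 8.25% and 7.99% and Tigit in 0.715% and 0.824%. The libraries lay close together for all genes but Ctla4, which was found in more cells of library 2. A share depends on how well each transcript is captured as well as on its abundance, so these shares rank detection and not expression. Without thinning the mean shares ran from 1.83% for Tigit to 45.3% for Cd160.

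Free RNA was also measured, since droplets can carry transcripts of other cells. In the 339 cells of other types, thinned to the same depth, Cd160 was detected in 11.4%, Ctla4 in 7.62%, Lag3 in 7.33%, Pdcd1 in 3.83%, Cd244 in 3.77%, Entpd1 in 3.18% and Havcr2 in 1.81% (means). Each of these is below the share in T cells. Tigit was found in 0.857% of other cells (3 and 0 cells). That mean was no less than in T cells but rests on 3 cells of library 1, so the overall share of Tigit could not be told apart from free RNA. The set-aside cells were not free of T cell RNA, with Cd3e in 40.7% of them. In barcodes under 100 UMIs, the receptors stood at 4.44 (Tigit) to 259 (Cd160) counts in CPM (UMIs scaled to a fixed library total), against 4.37 to 346 in T cells. Pdcd1 was at 133 CPM in that fraction and at 114 in T cells, and Tigit at 4.44 and 4.37. The pool of free RNA thus carried both at about the level of the cells. The others were lower in that fraction than in T cells, though all were present: Ctla4 (213 and 242), Havcr2 (51.3 and 62.4), Entpd1 (48.4 and 60.1), Cd160 (259 and 346), Lag3 (138 and 197) and Cd244 (55.2 and 80.2).

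To compare states, T cells were placed by the transcripts they carried: Cd8a together with Itgae (the CD103 integrin of intraepithelial lymphocytes), Il10 (an immunosuppressive cytokine), Il13 or Csf2 (a type 2 cytokine and GM-CSF), or Xcl1 (lymphotactin). Cells of 1 state only were used. The Cd8a and Itgae cells numbered 2065 and 2095, the Il10 cells 511 and 623, the Il13 or Csf2 cells 1442 and 1177, and the Xcl1 cells 438 and 459, while 10302 and 9990 cells had none of these and form the common reference. A further 702 cells with more than 1 state were left out. The 6 defining genes were left out of the tests, and the states share the reference cells, so their comparisons with it are not independent. Because UMIs were summed over the cells of a class, more cells with the transcript and more RNA per cell are not separated by a level in CPM, and the share of cells with a UMI is given beside it where it matters.

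**Figure D1:**
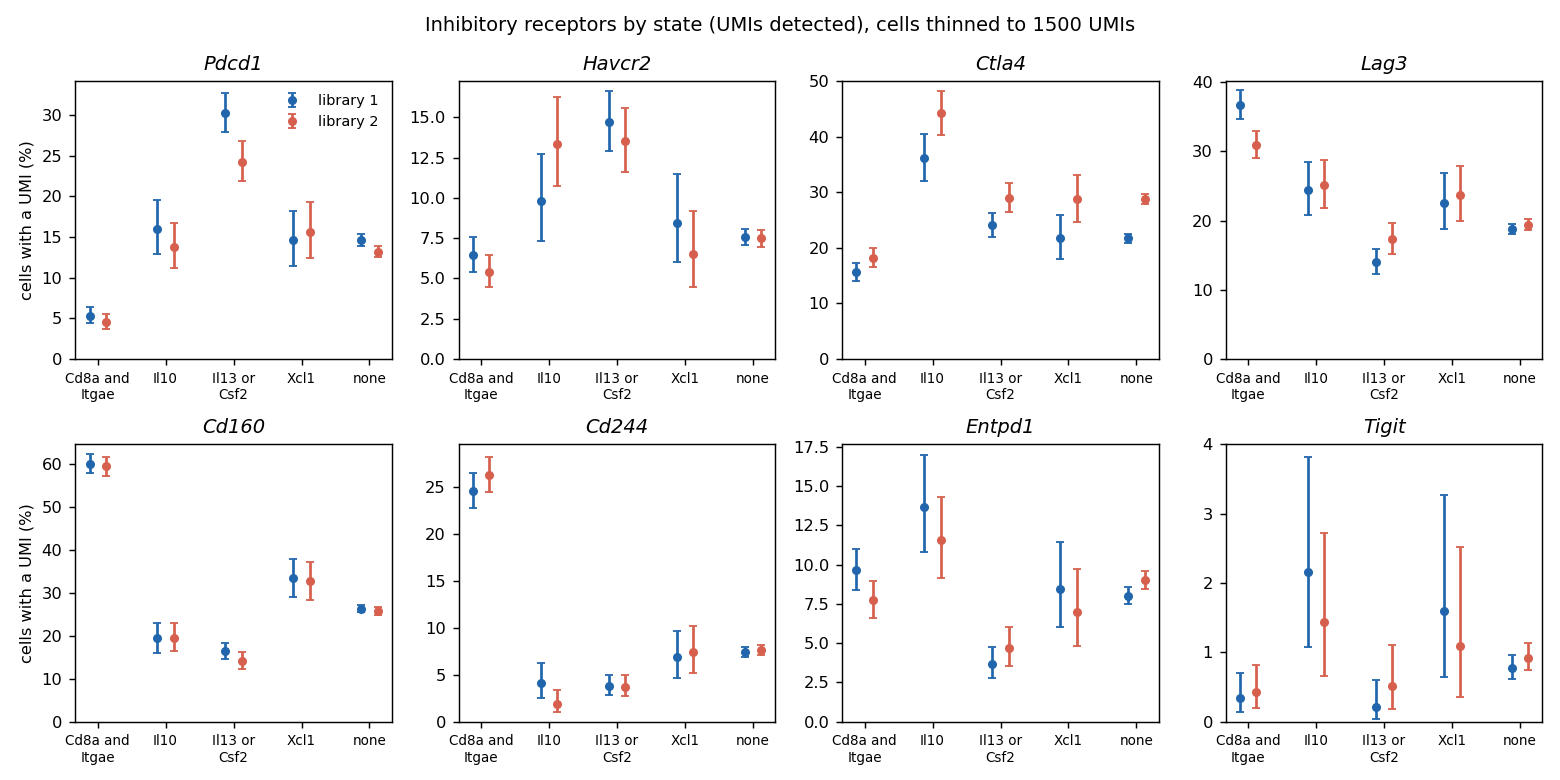
Share of T cells with at least 1 UMI of each receptor after thinning to 1500 UMIs (percent, y axis) in the 4 states and in cells of no state (x axis), with 1 point per library and exact 95% binomial intervals for counting error. Pdcd1 is highest in the Il13 or Csf2 cells and lowest in the Cd8a and Itgae cells, where Cd160, Cd244 and Lag3 are at their highest.

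Pdcd1 was highest in the Il13 or Csf2 cells and lowest in the Cd8a and Itgae cells. Its level was 350.0 and 257 CPM in the Il13 or Csf2 cells of libraries 1 and 2, 137 and 113 in cells of no state, and 40.7 and 34.0 in the Cd8a and Itgae cells. The Il10 cells were at 145 and 117 and the Xcl1 cells at 142 and 135, which overlap with the reference, whereas the highest and the lowest class stood clear of all others in both libraries. Against the reference the log2 fold was 1.33 ± 0.06 (SE; edgeR's quasi-likelihood test, Benjamini-Hochberg adjusted p = 1.79e-26) in the Il13 or Csf2 cells and -1.71 ± 0.09 (adjusted p = 4.57e-24) in the Cd8a and Itgae cells. The Il10 cells (0.15 ± 0.11) and Xcl1 cells (0.16 ± 0.12) did not pass, but a second random thinning called the former higher (0.38), and keeping cells of several states called the latter (0.41). Set directly against each other, the Cd8a and Itgae cells were lower than the Il13 or Csf2 cells (log2 fold -3.04 ± 0.10), the largest difference of this receptor between any pair of states. In cells, 30.3% and 24.3% of the Il13 or Csf2 cells and 5.33% and 4.58% of the Cd8a and Itgae cells had a Pdcd1 UMI, the latter near the 3.83% of other cell types.

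Ctla4, the other CD28 family receptor, shared its lowest class with Pdcd1 but peaked in the Il10 cells. The Il10 cells stood at 381 and 552 CPM, cells of no state at 223 and 311 and the Cd8a and Itgae cells at 159.8 and 187. Within each library the Il10 cells were the highest class and the Cd8a and Itgae cells the lowest, but library 2 was above library 1 in every class. The log2 fold was 0.90 ± 0.07 in the Il10 cells (adjusted p = 3.63e-15) and -0.58 ± 0.06 in the Cd8a and Itgae cells (adjusted p = 2.5e-11). The Il13 or Csf2 cells, at 231 and 309.8 CPM, did not differ beyond the spread (0.08 ± 0.07), and neither did the Xcl1 cells (0.01 ± 0.09, with -0.18 and 0.13 in the libraries). The Xcl1 value depended on which UMIs were drawn: a second random thinning gave -0.41 (adjusted p = 0.0251) and no thinning -0.22 (adjusted p = 0.0376), with 0.0251 to 0.996 as the range of adjusted p over its alternatives.

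Havcr2 was high in both cytokine states, the Il10 cells and the Il13 or Csf2 cells. Its level was 129 and 112 CPM in the Il13 or Csf2 cells, 84.8 and 104 in the Il10 cells and 57.3 and 57.3 in cells of no state. The Cd8a and Itgae cells were lowest, at 45.2 and 38.5, and the Xcl1 cells lay near the reference, at 57.8 and 46.5. The cytokine states did not overlap with the other classes. The log2 fold over the reference was 1.13 ± 0.09 in the Il13 or Csf2 cells, 0.82 ± 0.14 in the Il10 cells and -0.42 ± 0.10 in the Cd8a and Itgae cells (adjusted p = 5.61e-16, 7.52e-06 and 0.00103). The difference between the Il10 and the Il13 or Csf2 cells did not pass (-0.31 ± 0.14, adjusted p = 0.140), but the Il10 cells were called lower with 1000 UMIs per cell and with the second thinning (down to -0.55). With 1000 UMIs per cell the rise in the Il10 cells no longer passed (log2 fold 0.45, adjusted p = 0.205; 2.17e-06 to 0.205 over its alternatives). Havcr2 and Pdcd1 thus shared their highest and their lowest class.

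Cd160 and Cd244 were at their highest in the Cd8a and Itgae cells but were not confined to them. Over both libraries a Cd160 UMI was found in 2484 of these cells and in 5284 cells of no state. For Cd244 these numbers were 1057 and 1524. Cd160 reached 716 and 706 CPM there, against 263 and 258 in cells of no state, 163 and 177 in the Il10 cells and 149.8 and 127 in the Il13 or Csf2 cells. A Cd160 UMI was present in 60.0% and 59.4% of the Cd8a and Itgae cells and in 16.4% and 14.2% of the Il13 or Csf2 cells. Every Cd8a and Itgae value was above every value of the other classes. The log2 fold was 1.48 ± 0.05 in the Cd8a and Itgae cells (adjusted p = 1.44e-34), -0.52 ± 0.09 in the Il10 cells and -0.85 ± 0.07 in the Il13 or Csf2 cells, all past the threshold, though the Il10 call ended without thinning (log2 fold -0.20, adjusted p = 0.106; 2.42e-08 to 0.106 over its alternatives). The Xcl1 cells came second, at 333 and 328 CPM, with a log2 fold of 0.36 ± 0.08 (adjusted p = 0.00787) that did not pass without the low-count filter, without the library block or with 1000 UMIs per cell. Cd160 was the single receptor called in the Xcl1 cells.

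Cd244 had the same highest class, with wider distances. Its level was 194 and 217 CPM in the Cd8a and Itgae cells and 56.2 and 58.5 in the reference. In the Il10 cells it was 31.3 and 15.0 and in the Il13 or Csf2 cells 26.4 and 27.2. The share of cells with a UMI was 24.6% and 26.3% in the Cd8a and Itgae cells. In the Il10 cells (4.11% and 1.93%) and the Il13 or Csf2 cells (3.81% and 3.74%) it lay near the mean of 3.77% in other cell types. That mean rests on 13 cells and has a standard deviation of 2.75 over the libraries, so it is no firm background. The log2 fold over the reference was 1.87 ± 0.07 in the Cd8a and Itgae cells (adjusted p = 3.38e-32), -1.04 ± 0.14 in the Il13 or Csf2 cells and -1.27 ± 0.21 in the Il10 cells, where the libraries differed (-0.75 and -1.80). Between the Cd8a and Itgae cells and the Il10 cells the log2 fold was 3.15 ± 0.17 (2.56 and 3.70 in the libraries), and against the Il13 or Csf2 cells it was 2.92 ± 0.12.

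Lag3 joined Cd160 and Cd244 in the Cd8a and Itgae cells but was also raised in the Il10 cells. It stood at 354 and 298 CPM in the former, 248 and 238 in the latter, 209 and 225 in the Xcl1 cells, 173 and 180.4 in cells of no state and 114 and 156 in the Il13 or Csf2 cells. This order held in both libraries. The log2 fold was 0.92 ± 0.06 in the Cd8a and Itgae cells (adjusted p = 1.86e-19) and 0.54 ± 0.10 in the Il10 cells (adjusted p = 4.14e-05). The step between those classes passed (0.37 ± 0.10, adjusted p = 0.00267), but not with DESeq2, without the library block or without thinning. The Xcl1 cells differed neither from the reference (0.31 ± 0.11) nor from the Il10 cells (0.23 ± 0.13 for Il10 over Xcl1) past the threshold, though keeping cells of several states called them above the reference (0.39). The Il13 or Csf2 cells were lower (-0.36 ± 0.09, with -0.54 and -0.17 in the libraries, adjusted p = 0.00142), a call that ended under 5 of the alternatives.

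Entpd1 was highest in the Il10 cells and lowest in the Il13 or Csf2 cells. The Il10 cells held 104 and 84.5 CPM, cells of no state 57.1 and 65.9, the Cd8a and Itgae cells 69.7 and 53.8 and the Il13 or Csf2 cells 25.0 and 32.3. The Il13 or Csf2 cells stood below every other class, and the Il10 cells above. The log2 fold was 0.69 ± 0.15 in the Il10 cells (adjusted p = 0.000531) and -1.06 ± 0.15 in the Il13 or Csf2 cells (adjusted p = 3.3e-08), and between them it was 1.76 ± 0.20. In the Cd8a and Itgae cells the libraries went opposite ways (0.33 and -0.26), and the fold of 0.04 ± 0.10 did not pass, though the second thinning called it higher (0.24). The Xcl1 cells, at 62.4 and 52.3 CPM, overlapped with the reference.

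Tigit was too sparse for a firm order. It was found in 11 and 9 of the Il10 cells of libraries 1 and 2 (2.15% and 1.44%), 7 and 5 of the Xcl1 cells, 7 and 9 of the Cd8a and Itgae cells and 3 and 6 of the Il13 or Csf2 cells. The Il10 cells had the highest share in both libraries. Their log2 fold over the reference, 1.14 ± 0.40, did not pass (adjusted p = 0.0822), but it did with the second thinning (1.60 as log2 fold) and without thinning, with an adjusted p as low as 0.00304. The Cd8a and Itgae cells were lower (-1.10 ± 0.36, adjusted p = 0.0148), which DESeq2 and 1000 UMIs per cell did not call. The Il10 cells were above the Il13 or Csf2 cells (2.37 ± 0.57, adjusted p = 0.00168), a call that ended with 1000 UMIs per cell. Apart from the Il10 and Xcl1 cells the shares were near or below the 0.857% of other cell types.

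Counted together, 7 of the 8 receptors differed from the reference in the Cd8a and Itgae cells, 3 higher and 4 lower. Of the 9320 genes tested there, 31.9% were called, 15% higher and 17% lower. In the Il10 cells 6 of 8 were called, 4 higher and 2 lower, where 6.17% of all genes were (3.93% and 2.24%). The Il13 or Csf2 cells had 2 receptors higher and 4 lower, against 16.4% of all genes called (10% and 6.34%), and the Xcl1 cells had 1 higher and 0 lower, against 1.13% (0.837% and 0.29%). For that 0, 0 receptors were lower with DESeq2 as well, and 2 receptors in all, in either direction, had an unadjusted p under 0.05. The median log2 fold over the 8 receptors was -0.19 in the Cd8a and Itgae cells, 0.62 in the Il10 cells, -0.60 in the Il13 or Csf2 cells and 0.09 in the Xcl1 cells, beside 0.00, 0.00, -0.01 and 0.00 over all genes. In none of the first 3 states did the receptors move in 1 direction, and no 2 states had the same set of raised receptors: Cd244, Cd160 and Lag3 in the first, Ctla4, Havcr2, Entpd1 and Lag3 in the second, Pdcd1 and Havcr2 in the third.

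**Figure D2:**
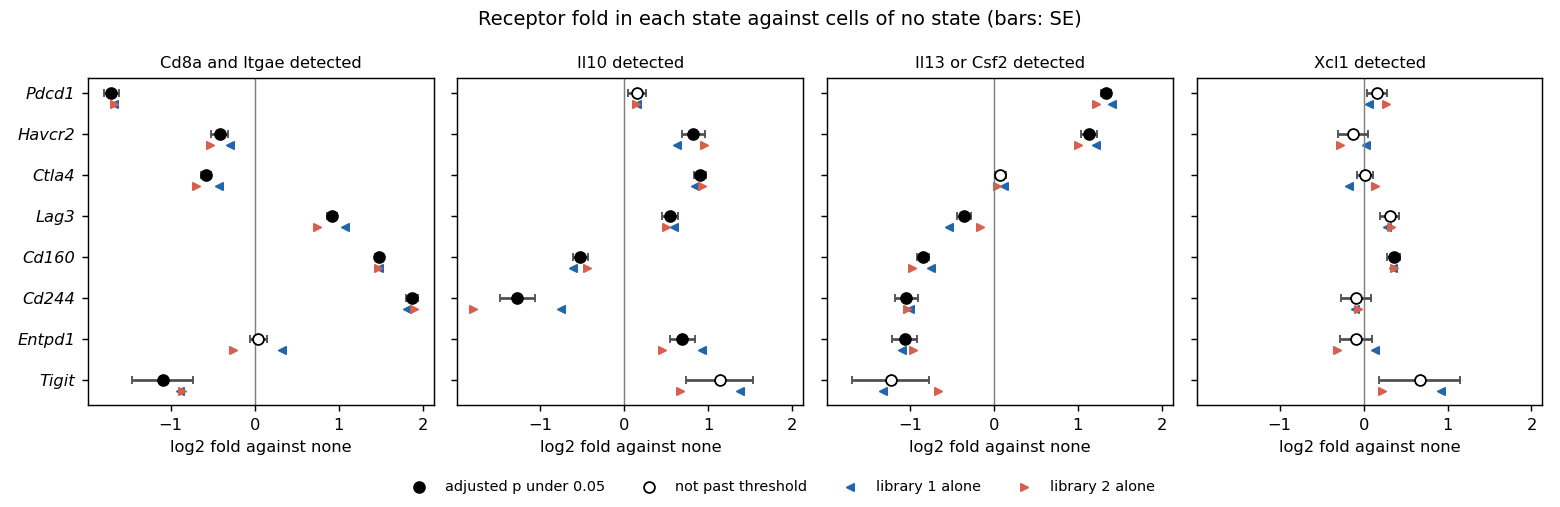
Log2 fold of each receptor (y axis) in each state against cells of no state (x axis, 1 panel per state), with the SE of the fit as bars and each library alone as small triangles. Filled points pass an adjusted p of 0.05: 3 receptors are higher and 4 lower in the Cd8a and Itgae cells, 4 and 2 in the Il10 cells, 2 and 4 in the Il13 or Csf2 cells, and 1 and 0 in the Xcl1 cells.

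Setting the states directly against each other gave the most calls over all genes, 35.9%, between the Cd8a and Itgae cells and the Il13 or Csf2 cells, with 7 of 8 receptors called. Cd244 (2.92), Cd160 (2.33), Lag3 (1.27) and Entpd1 (1.10) were higher in the former, and Pdcd1 (-3.04), Havcr2 (-1.55) and Ctla4 (-0.66) in the latter. Between the Cd8a and Itgae cells and the Il10 cells all 8 receptors were called, where 20% of all genes were, and Cd160, Cd244 and Lag3 were the 3 on the side of the former. With 1000 UMIs per cell the Tigit and Entpd1 calls of that comparison ended (adjusted p = 0.110 and 0.204), and the Lag3 call ended under the alternatives named above. Between the Il10 cells and the Il13 or Csf2 cells 6 of 8 were called, against 14.2% of genes, with Entpd1, Tigit, Lag3, Ctla4 and Cd160 higher in the Il10 cells and Pdcd1 lower (-1.19). The Cd160 call there (0.33 ± 0.11, adjusted p = 0.0402) ended under 9 alternatives. Against the Xcl1 cells, 6 of 8 were called for the Cd8a and Itgae cells (16.5% of genes), 5 of 8 for the Il10 cells (3.23%) and 6 of 8 for the Il13 or Csf2 cells (7.22%). The Xcl1 cells lay between the extremes for Pdcd1, Cd160 and Cd244, and Havcr2 was lower there than in both cytokine states (0.95 ± 0.21 for the Il10 cells and 1.26 ± 0.18 for the Il13 or Csf2 cells), the former ending with 1000 UMIs per cell or with cells of several states kept.

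Detection in single cells gave a second view of which receptors went together. For each of the 28 pairs, the number of T cells with both receptors was divided by the number given by independent detection at the same shares. Cd160 and Cd244 were found together in 806 and 757 cells of libraries 1 and 2, where independence gave 428 and 433, a ratio of 1.88 and 1.75 (exact 95% intervals, for counting error only, of 1.76 to 2.02 and 1.63 to 1.88). Pdcd1 and Havcr2 shared 334 and 250 cells against 187 and 152, a ratio of 1.79 and 1.65 (1.60 to 1.99 and 1.45 to 1.86). These pairs had the highest mean ratios of all 28. The next were Lag3 with Cd244 (1.61 and 1.39), Tigit with Entpd1 (1.62 and 1.36, on 14 cells in each library) and Lag3 with Cd160 (1.42 and 1.25).

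The lowest ratios crossed those pairs. Pdcd1 with Cd244 occurred in 101 and 105 cells against 212 and 187, a ratio of 0.48 and 0.56, and Pdcd1 with Cd160 had 0.58 and 0.71. Havcr2 with Cd244 followed, at 0.87 and 0.58, and Pdcd1 with Entpd1, at 0.66 and 0.82. Over all pairs 14 ratios were above 1 in both libraries, 7 of them with both intervals above 1, and 11 were below, 6 of them with both intervals below. The remaining 3 pairs lay on both sides, and the median ratio was 1.08. These counts hold at 1500 UMIs: with cells at their own depths 22 pairs were above 1 and 3 below. Pdcd1 with Cd244 and with Cd160 kept the lowest ratios then, at 0.81 and 0.87, and Havcr2 with Cd244 moved to 1.19.

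**Figure D3:**
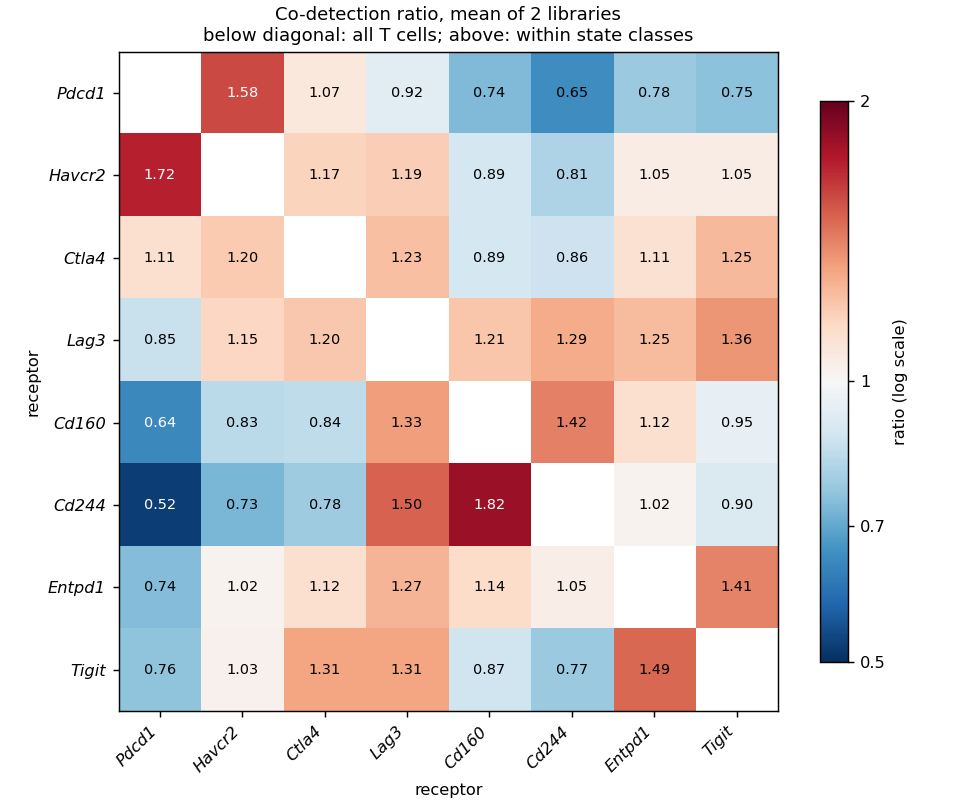
Ratio of the cells with both receptors to the number under independent detection, mean of the 2 libraries, on a log colour scale, over all T cells below the diagonal and within the state classes above it. Cd160 with Cd244 (1.82) and Pdcd1 with Havcr2 (1.72) are highest, and Pdcd1 with Cd244 (0.52) is lowest.

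For the pairs at either end, the mean ratio moved toward 1 within the state classes but did not reach it. When the expected number was summed over the state classes, the mean ratio of Cd160 with Cd244 went from 1.82 to 1.42, that of Pdcd1 with Cd244 from 0.52 to 0.65, and that of Pdcd1 with Havcr2 from 1.72 to 1.58. Inside the Cd8a and Itgae cells, where both receptors were common, Cd160 and Cd244 had a ratio of 1.12 and 0.98 (intervals 1.00 to 1.24 and 0.88 to 1.09), while it was 2.03 and 1.89 (1.84 to 2.24 and 1.70 to 2.09) among cells of no state and 2.44 and 3.20 among the Il13 or Csf2 cells. Pdcd1 and Havcr2 went together in cells of no state (1.82 and 1.65) and in the Il13 or Csf2 cells (1.49 and 1.40), while the 6 and 9 Il10 cells with both gave 0.75 and 0.79, with intervals (0.27 to 1.63 and 0.36 to 1.49) that overlap those of the Il13 or Csf2 cells (1.21 to 1.82 and 1.05 to 1.82). Lag3 with Ctla4, both raised in the Il10 cells, had a ratio of 1.20 over all cells and 1.23 within the classes. Cells of no state are 1 of these classes and still differ in Cd8a, detected in 20.0% of them, and in Itgae, in 12.1% (means). Some may belong to a state whose genes were not captured, so pairing within states and between states cannot be fully told apart.

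The number of receptors per cell was close to, but wider than, what independent detection gives. None of the 8 was found in 30.1% and 27.7% of T cells, against 27.8% and 25.9% under independence. Exactly 1 was found in 37.3% and 37.9%, against 40.1% and 39.9%, and at least 3 in 9.79% and 10.4% (9.32 to 10.3% and 9.95 to 10.9%), against 8.61% and 9.55%. At least 4 were found in 1.87% and 2.15%, against 1.40% and 1.60%. Both ends, cells with none and cells with several, thus exceeded the independent number in both libraries, and the most in any cell was 6, in 1 and 3 cells.

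Across the states, the Cd8a and Itgae cells carried the most receptors, with a mean of 1.59 and 1.53 detected per cell and 17.3 and 15.6% of cells with at least 3. The Il10 cells averaged 1.26 and 1.31, the Xcl1 cells 1.18 and 1.23, the Il13 or Csf2 cells 1.07 and 1.07 and cells of no state 1.05 and 1.12. The Il13 or Csf2 cells, where Pdcd1 and Havcr2 were raised, did not exceed the reference in library 2. These means count a frequent receptor such as Cd160 as much as a rare one, and with cells at their own depths the overall mean was 2.07 in place of 1.17.

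**Figure D4:**
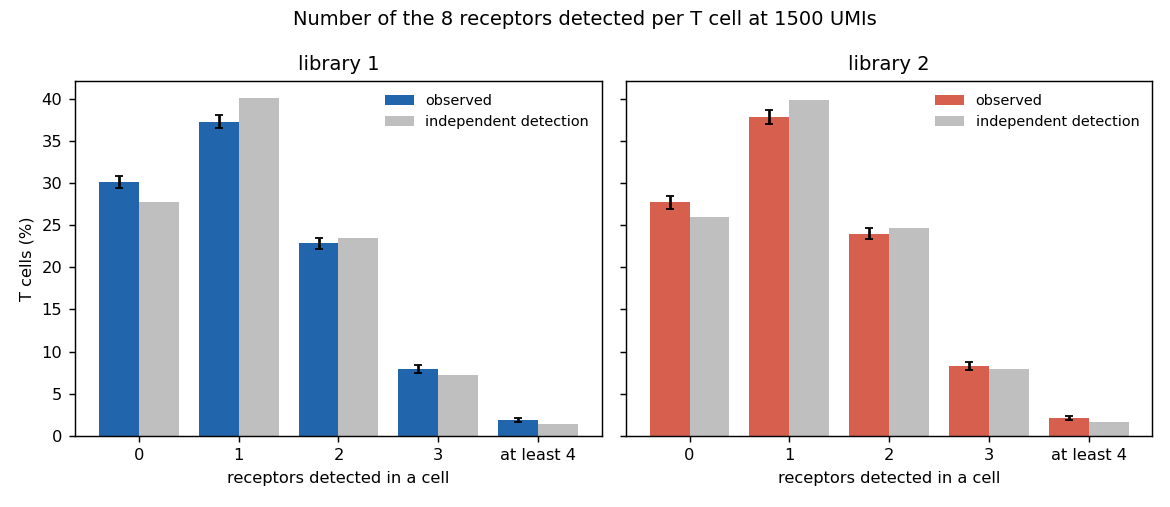
Share of T cells (percent, y axis) by number of the 8 receptors detected at 1500 UMIs (x axis), observed and under independent detection, for each library. Cells with 0 receptors (30.1% and 27.7% observed) and cells with at least 3 exceed the independent shares, and cells with exactly 1 fall short of them.

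Another view split all T cells by each receptor in turn and tested the other 7 genes on the sums of both libraries. These splits reuse the same cells as the co-detection counts and are no separate evidence. Cells with Pdcd1 had more Havcr2 (log2 fold 1.06 ± 0.08, adjusted p = 1.46e-07) and less Cd244 (-1.13 ± 0.09) and Cd160 (-0.80 ± 0.07), and 6 of the 7 others were called, in a split that called 12.2% of all genes. Cells with Havcr2 had more Pdcd1 (1.08 ± 0.06, adjusted p = 1.61e-11) and smaller rises of Lag3 and Ctla4 (0.36 and 0.29), with 5 of 7 called and 7.38% of genes. Cells with Cd160 had more Cd244 (1.60 ± 0.05) and Lag3 (0.70 ± 0.04) and less Pdcd1 (-1.05 ± 0.05), with 6 of 7 called and 31.5% of genes. Cells with Cd244 had more Cd160 (1.14 ± 0.04) and Lag3 (0.71 ± 0.05) and less Pdcd1 (-1.25 ± 0.08), with 5 of 7 called and 21.1% of genes.

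Lag3 and Ctla4 were less one-sided. Cells with Lag3 had more Cd244 (0.81 ± 0.07), Cd160 (0.67 ± 0.04), Entpd1 (0.50 ± 0.07), Ctla4 (0.44 ± 0.05) and Havcr2 (0.30 ± 0.07), and less Pdcd1 (-0.41 ± 0.06), so that 6 of 7 were called, against 14.3% of genes. Cells with Ctla4 had more Lag3, Havcr2, Pdcd1 and Entpd1 (0.48, 0.40, 0.37 and 0.31) and less Cd160 and Cd244 (-0.42 and -0.45), again 6 of 7, against 13.4%. Cells with Entpd1 had more Lag3 (0.51), Ctla4 (0.26) and Cd160 (0.24) and less Pdcd1 (-0.65), 4 of 7, against 4.69%. The 229 cells with Tigit gave 0 of 7 calls by edgeR's quasi-likelihood test and 0 by DESeq2, with 3 at an unadjusted p under 0.05, where 0.51% of genes were called. Of the 28 pairs, 11 were higher in both splits, 8 lower in both, 0 opposite and 9 called in neither. Both splits of a pair rest on the same cells with both receptors, so their directions are tied and count as 1 result. Each split rests on 1 residual degree of freedom. Without the library block, 3 receptors were called in each of the Pdcd1, Lag3, Ctla4 and Cd244 splits, and 1 in each of the Havcr2 and Entpd1 splits; with DESeq2, 3 were called in the Pdcd1 split and 2 in the Entpd1 split. The Pdcd1 with Havcr2, Cd160 with Cd244, and Pdcd1 with Cd244 or Cd160 calls were made in every alternative.

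**Figure D5:**
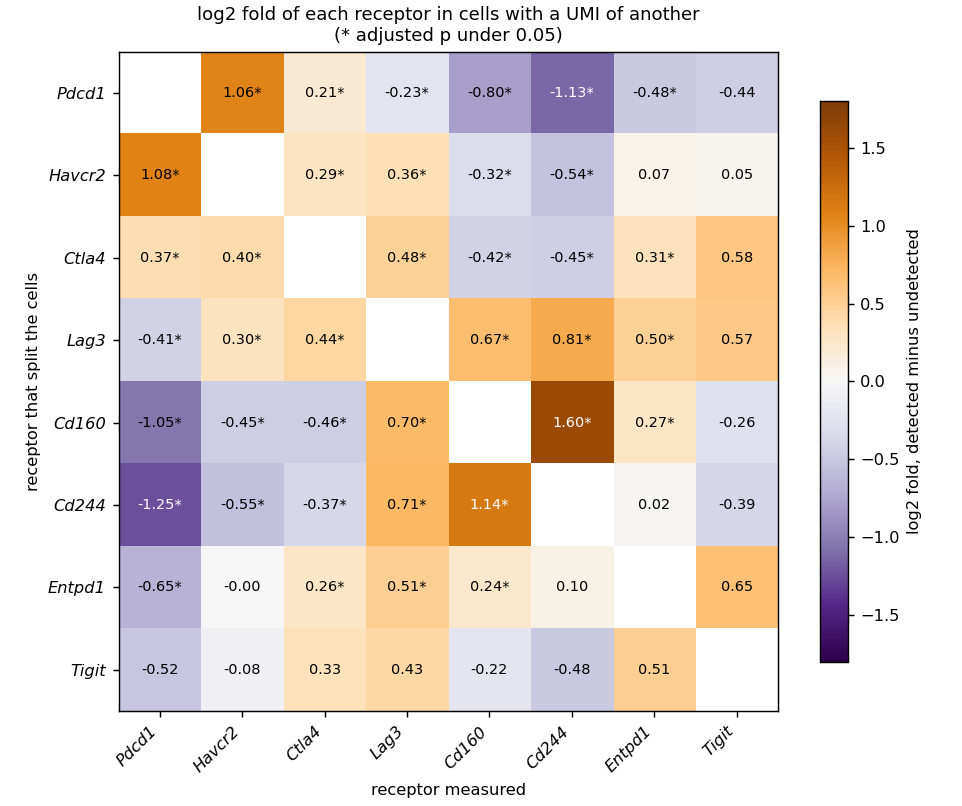
Log2 fold of each receptor (columns) between T cells with and without a UMI of another receptor (rows), from the sums of both libraries, with an asterisk at an adjusted p under 0.05. Havcr2 is higher in cells with Pdcd1 (1.06) and Cd244 in cells with Cd160 (1.60), while Pdcd1 is lower in cells with Cd244 (-1.25) or Cd160 (-1.05).

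The genes most like each receptor, taken as the 3 largest rises past the threshold in its split, differed between the groups. They had at least 50 CPM in the cells with the receptor and were higher there in both libraries, a filter that favours genes that rise. Cd8a, Il10, Il13 and Xcl1 also define the states, so finding them here is not separate from the state comparisons. For Pdcd1 the 3 genes were Il1r2 (log2 fold 1.92), the chemokine gene Ccl1 (1.79) and Tnfsf11 (1.78), and for Havcr2 Il13 (1.82), Ccl1 (1.69) and Il1r2 (1.68). For Cd160 they were Lyl1 (1.74), Cd8a (1.72) and Cd244, and for Cd244 Cela1 (1.65), 2900026A02Rik (1.60) and Cd8a (1.59). Those of Ctla4 were Areg (1.43), which encodes amphiregulin, Vps37b (1.37) and Hilpda (1.13). Those of Entpd1 were the T-box factor gene Eomes (0.79), Il10 (0.61) and Tff1 (0.60), and those of Lag3 were Spp1 (1.16), Xcl1 (1.02) and the granzyme gene Gzma (1.00). Tigit had Il10 (1.23, with 1.93 and 0.48 in the libraries), Eomes (1.07) and Maf (0.79).

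Around the receptors, lists of related genes differed by state. In the Cd8a and Itgae cells, where 15% of all genes were called higher and 17% lower, of the other inhibitory receptors 4 of 13 were higher and 5 lower (median log2 fold -0.10), and the largest differences were falls of Klrg1 (-2.54), Klrc1 (-1.80), the IL-10 receptor gene Il10ra (-1.78) and Lair1 (-1.67). Of the co-stimulatory receptors 2 of 16 were higher and 12 lower (median -0.88), among them Cd28 (-2.37), Slamf6 (-2.36) and Tnfrsf4 (-2.17). Of the transcription factors tied to receptor expression 5 of 19 were higher and 11 lower (median -0.35), with falls of Eomes (-2.62), Tcf7 (-2.51) and Maf (-1.74). The T cell activation genes had 0 higher and 13 lower of 17, and the progenitor genes 0 and 10 of 11. Gzma (1.83) and Gzmb (1.53) rose among the cytotoxic genes, of which 5 of 12 were higher and 3 lower. Cd160, Cd244 and Lag3 were thus raised in cells with lower levels of most co-stimulatory receptors and activation genes tested.

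In the Il10 cells 3.93% of all genes were called higher and 2.24% lower. Of the same transcription factors 10 of 19 were higher and 0 lower (median 0.42), led by Maf (1.39), Irf4 (1.31), Batf (1.13) and Eomes (1.05), and of the activation genes 12 of 17 were higher and 0 lower (median 0.66), led by the chemokine genes Ccl3 (1.78) and Ccl4 (1.74). The other inhibitory receptors split evenly, as 3 of 13 were higher and 3 lower, with Klrg1 up (1.38) and Klrc1 down (-1.26). Of 6 adenosine pathway genes, which make, clear or sense adenosine, Adora2a was the 1 called (0.56). Of the cytotoxic genes 6 of 12 were higher and 3 lower. Gzmc (-1.96, at 2.36 against 9.67 CPM) and Gzma (-1.36) fell, while Gzmk (0.94) and the perforin gene Prf1 (0.70) rose.

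In the Il13 or Csf2 cells 10% of all genes were called higher and 6.34% lower. Of the activation genes 14 of 17 were higher and 0 lower (median 0.91), with Il2ra (2.03), Spry1 (1.86) and Egr3 (1.78) in front. Of the co-stimulatory receptors 9 of 16 were higher and 3 lower (median 0.26), with rises of Tnfrsf9 (1.51), Tnfrsf4 (1.33) and Icos (1.06). Of the receptor ligands 6 of 11 were higher and 2 lower. Rises were seen for the PD-L2 gene Pdcd1lg2 (1.16), whose protein binds PD-1, Lgals3 (0.93) and Pvr (0.75), which encodes the TIGIT ligand CD155. Cd86 (-0.86), which encodes a ligand of CTLA-4, fell. The orphan nuclear receptor genes Nr4a1 (1.07) and Nr4a3 (1.03) rose among the transcription factors, of which 6 of 19 were higher and 6 lower. In the Cd8a and Itgae cells the ligands went the other way: 1 of 11 were higher and 6 lower, with Pdcd1lg2 at -0.73 and Pvr at -1.57. Inhibitory signalling and trafficking genes had no common direction in the Il13 or Csf2 cells (3 of 19 were higher and 5 lower) or in the Cd8a and Itgae cells (7 of 19 were higher and 6 lower).

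In the Xcl1 cells, where Cd160 was the receptor called, 0.837% of all genes were called higher and 0.29% lower. Of the transcription factors 6 of 19 were higher and 0 lower, namely Nr4a3 (0.80), Nr4a2 (0.65), Eomes (0.62) and Nr4a1 (0.60) as the largest, and of the activation genes 8 of 17 were higher and 0 lower. Crtam (2.99) and Tnfrsf9 (1.30) were the co-stimulatory receptors called, of 16. The median over all genes lay within 0.01 of 0 in each of these comparisons with the reference. Gene lists overlap in a few members (Irf4 is both a transcription factor and an activation gene here) and were read as counts only.

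The summed level of markers of innate-like and CD8 lymphocytes was highest in the Cd8a and Itgae cells, where Cd160 and Cd244 were raised. The 12 genes of that list summed to 1576 and 1436 CPM in the Cd8a and Itgae cells, 979 and 979 in cells of no state, 957 and 1018 in the Xcl1 cells, 908 and 939.7 in the Il13 or Csf2 cells and 578 and 631 in the Il10 cells. In the Cd8a and Itgae cells the list had 4 of 9 tested genes higher and 5 lower, with a median log2 fold of -0.61, so the sum does not stand for most of its genes. Tcrg-C4, a gamma chain constant gene, was detected in 38.0% and 42.6% of them against 13.0% and 13.5% of the reference, and Cd8b1, the CD8 beta chain gene, in 13.2% and 11.6% against 5.64% and 5.06%. Others of the list were lower there: Trdc was detected in 20.5% and 23.2% against 29.9% and 32.9%, Tyrobp had a log2 fold of -1.37, and the natural killer gene Ncr1 (-2.57) was found in 0.0481% against 0.157% (means). Klra8 was at 0. Cd4 was found in 27.4% and 28.1% against 24.7% and 25.9% and Cd3e in 97.7% against 92.1% (means). In the Xcl1 cells Ncr1 was higher (3.31), as were Fcer1g (1.66) and Tyrobp (1.15), with Ncr1 found in 1.23% of cells. The part of these transcripts in the receptor differences was not tested.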

How the data were processed

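Gene expression was measured in 2 droplet libraries of sorted, pooled CD4 T cells. The deposited values are counts: raw UMI counts per gene and barcode, made by the authors with Cell Ranger 3.1.0 against mm10, per the submitters' processing notes, with the 3' v3 chemistry, per the labels' protocols. The 2 hashtag libraries were not used, since their feature lists hold the same 31053 genes and 0 hashtag features.

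Cells were barcodes with 1000 UMIs or more, 500 genes or more and a mitochondrial share of up to 10%. A cell was set aside as another type when 1% of its UMIs came from 1 of 6 marker lists. Each remaining cell was thinned (seed 20) to 1500 UMIs, and 80% of kept cells or more reached that depth. No doublet caller was run, and leaving out the 5% deepest cells was an alternative. States were set by detected genes and not by clustering. Counts of the 5 classes were summed per library and tested in 1 fit with edgeR 4.0.16's quasi-likelihood test (R 4.3.3, TMM, filterByExpr, library as a block because the classes of a library share its cells), with 4 residual degrees of freedom. A call is a Benjamini-Hochberg adjusted p under 0.05 over all genes tested. The fit shares spread across genes, so an SE may understate how far the libraries lie apart. The 8 splits by a receptor were fitted alike on 4 sums, leaving out the splitting gene. Of the 8 receptors, 8 passed the low-count filter in the state fit and 7 in each split. Binomial intervals are exact (Clopper-Pearson, 95%, scipy 1.17.1) and cover counting error only.

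Alternatives were DESeq2 1.42.0, RLE size factors, no low-count filter, no library block, 1000 UMIs, a second thinning (seed 21), no thinning, all cell types kept or removed at 0.5%, cells of several states kept, and each library left out. Leaving out shared barcodes was added after the data were seen. Named list genes are up to 4 called genes with the largest change per list. The receptors, states and lists were chosen with earlier results of these data known. The tests were also run on simulated data with known changes. Versions were Python 3.11.15, numpy 2.4.6, pandas 2.3.3 and limma 3.58.1.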

Additional observations from a re-analysis of the deposited data

How the results depend on the processing

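Of the receptors' log2 folds under the alternatives, 1719 were counted as unchanged, 93 fell short of the threshold, 33 newly passed and 3 changed sign with a call involved. The 1719 include 22 that changed sign uncalled. They also include 136 values from each library alone. Those have no p-value and could count as changed only where a called fold changed sign. In every alternative 39 of the 58 state calls and 18 of the 38 split calls were made, 0 were reversed and called, and all had 1 sign in both libraries. The reversed values were the log2 fold of Ctla4 in the Xcl1 cells, at -0.41 with the second thinning and -0.22 without thinning, and that of Havcr2 in the Tigit split, at 0.38 without thinning; the cause was not tested. At 1500 UMIs Tigit was detected in 229 T cells, so its values rest on few cells. With the reported settings, the genes called numbered 2977 (Cd8a and Itgae), 575 (Il10), 1527 (Il13 or Csf2) and 105 (Xcl1) in the states, 1866 (Cd8a and Itgae against Il10), 3350 (Cd8a and Itgae against Il13 or Csf2), 1540 (Cd8a and Itgae against Xcl1), 1320 (Il10 against Il13 or Csf2), 301 (Il10 against Xcl1) and 673 (Il13 or Csf2 against Xcl1) between states, and 1371 (Pdcd1), 1602 (Lag3), 832 (Havcr2), 56 (Tigit), 1491 (Ctla4), 3527 (Cd160), 2376 (Cd244) and 527 (Entpd1) in the splits. The counts that moved by over 1.5 times follow. With DESeq2, the genes called were 1455 (Cd8a and Itgae), 339 (Il10), 711 (Il13 or Csf2) and 57 (Xcl1) in the states, 873 (Il10 against Il13 or Csf2) and 413 (Il13 or Csf2 against Xcl1) between states and 483 (Pdcd1), 261 (Lag3), 275 (Havcr2), 17 (Tigit), 278 (Ctla4), 935 (Cd160), 712 (Cd244) and 87 (Entpd1) in the splits. Receptors called then numbered 3 (Pdcd1) and 2 (Entpd1). Without the library block (the replicate block), the genes called were 1896 (Cd8a and Itgae), 279 (Il10), 844 (Il13 or Csf2) and 13 (Xcl1) in the states, 123 (Il10 against Xcl1) and 396 (Il13 or Csf2 against Xcl1) between states and 585 (Pdcd1), 223 (Lag3), 248 (Havcr2), 174 (Ctla4), 1307 (Cd160), 977 (Cd244) and 37 (Entpd1) in the splits. Receptors called then numbered 0 (Xcl1), 3 (Il10 against Xcl1), 3 (Pdcd1), 3 (Lag3), 1 (Havcr2), 3 (Ctla4), 3 (Cd244) and 1 (Entpd1). With 1000 UMIs per cell, the genes called were 1853 (Cd8a and Itgae), 354 (Il10) and 60 (Xcl1) in the states, 1148 (Cd8a and Itgae against Il10), 784 (Il10 against Il13 or Csf2), 167 (Il10 against Xcl1) and 335 (Il13 or Csf2 against Xcl1) between states and 1051 (Lag3), 482 (Havcr2), 1 (Tigit), 834 (Ctla4), 1179 (Cd244) and 232 (Entpd1) in the splits. Receptors called then numbered 0 (Xcl1), 3 (Il10 against Xcl1), 3 (Il13 or Csf2 against Xcl1) and 3 (Havcr2). Without thinning, the genes called were 4769 (Cd8a and Itgae), 1019 (Il10) and 999 (Xcl1) in the states, 3728 (Cd8a and Itgae against Il10), 5521 (Cd8a and Itgae against Il13 or Csf2), 4124 (Cd8a and Itgae against Xcl1), 2773 (Il10 against Il13 or Csf2), 1517 (Il10 against Xcl1) and 2188 (Il13 or Csf2 against Xcl1) between states and 2474 (Pdcd1), 2835 (Havcr2), 381 (Tigit), 2424 (Ctla4), 6569 (Cd160), 6169 (Cd244) and 2696 (Entpd1) in the splits. Receptors called then numbered 2 (Xcl1) and 6 (Tigit). With cells of 2 or more states kept, the genes called were 189 (Xcl1) in the states. Receptors called then numbered 3 (Xcl1) and 3 (Il10 against Xcl1). Without the low-count filter, the genes called were 2296 (Cd160) in the splits. Receptors called then numbered 0 (Xcl1). With the second thinning, receptors called numbered 2 (Xcl1) and 2 (Tigit). Fewer UMIs and no thinning change the counts in the tests by construction; for the other settings the cause was not tested. The share of T cells with at least 3 receptors was 4.93% with 1000 UMIs and 35.4% without thinning, and 9.79 to 10.4% in single libraries. The mean number of receptors per cell was 0.872, 2.07 and 1.14 to 1.20. Without thinning 22 pairs were above 1 and 3 below in both libraries, and in single libraries 15 to 16 were above and 12 to 13 below. Of the co-detection ratios, 206 moved by less than the spread and 46 by more, 23 of the latter without thinning. The 206 include the 28 ratios of each single library, which lie within that spread by construction. A count of calls without 1 library cannot be had, since 1 library leaves no residual degree of freedom.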

Other observations

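Receptors were also read in T cells grouped by a gene outside the 4 states. The 1861 T cells with Tcf7, which encodes the factor TCF-1 of naive, memory and progenitor T cells, carried a mean of 0.797 and 0.858 receptors in libraries 1 and 2, and 4.00 and 4.62% of them had at least 3. Pdcd1 was detected in 15.9% and 13.2% and Ctla4 in 20.8% and 27.4% of these cells, close to all T cells, while Havcr2 (3.58% and 3.30%), Lag3 (12.6% and 13.0%), Cd160 (16.8% and 17.7%) and Cd244 (2.73% and 4.07%) were below their shares in all T cells in both libraries. The 4870 T cells with the cell cycle genes Mki67 or Top2a carried a mean of 1.09 and 1.13 receptors, with Cd160 in 31.1% and 31.0%, Lag3 in 18.3% and 19.4% and Pdcd1 in 14.1% and 11.5%. These groups overlap with the 4 states, and their values were not tested. In the 702 cells with more than 1 state, which were left out above, the mean was 1.34 and 1.50 receptors.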
